A study of Mus musculus with 8 samples.

Results

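The libraries described here are 3 of 8 that held over 10000 counts of Slc4a1, called Slc4a1-high, set against the other 5, which held under 1000 and are called Slc4a1-low. Slc4a1 encodes the chloride-bicarbonate exchanger of the red cell membrane. The libraries were selected on this measured count, so every difference between the sets is a description of these libraries and carries no test. The Slc4a1-high libraries were control replicates 2 and 3 and mito-supplemented replicate 1, with 31582, 29789 and 61797 counts of the gene. The Slc4a1-low libraries were control replicates 1 and 4 and mito-supplemented replicates 2, 3 and 4, with 99, 113, 687, 223 and 134 counts. Values below keep these orders. The library just above the threshold of 10000 held 29789 counts and the one just below the threshold of 1000 held 687.

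The study asked whether adding mitochondria to an oocyte when it is fertilised is safe for the animals born from it and for their descendants. RNA was sequenced from primordial follicles of C57Bl/6 x CBA mice at postnatal day 3, taken from enzymatically digested ovaries. The animals were offspring of the third generation descended from mitochondrially supplemented oocytes (mito-supplemented, 4 libraries) and controls (control, 4 libraries). All libraries share the strain cross, the age, the digestion and an amplification of small amounts of RNA before sequencing. Total counts were 13917412, 18219362 and 19760763 in the Slc4a1-high libraries. They were 17658559, 10370045, 13370911, 16116434 and 13276462 in the Slc4a1-low libraries.

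Red cells arise in the fetal and neonatal mouse from precursors that divide quickly while they build haem, globin and a membrane skeleton. A small set of transcription factors, among them Gata1, Klf1 and Tal1, drives that programme, and the cells lose nucleus and organelles at its end. Primordial follicles hold an oocyte and a single layer of granulosa cells, and have no blood supply of their own.

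Markers of the labelled tissue were present on both sides of the split. Ddx4, a germ cell RNA helicase, was at 8.47, 11.997 and 24.3 CPM (counts scaled to a common library size, with normalisation for library composition) in the Slc4a1-high libraries and at 68.0, 11.2, 9.89, 20.6 and 7.95 in the Slc4a1-low ones. Nobox, an oocyte transcription factor, was at 5.62, 9.60 and 35.8 against 244, 55.8, 17.4, 58.1 and 9.002 CPM. Foxl2, the granulosa cell factor, was at 9.42, 12.6 and 7.70 against 14.9, 32.7, 14.6, 21.9 and 62.1 CPM. No library lacked these genes, and control replicate 1 was highest for Ddx4 and Nobox.

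The split crossed the treatment groups. Of the control libraries 2 were Slc4a1-high and 2 were Slc4a1-low, and of the mito-supplemented libraries 1 was high and 3 were low. The first part of the label codes did not follow the split either, since each of the 3 codes held by more than 1 library included both kinds. What that part of the code stands for is not given in the sources used here.

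A large part of the transcriptome followed the same line, mostly upward. Among 13949 genes with a mean CPM of at least 1, Slc4a1 left out, 1758 (12.6%) were higher, meaning that every Slc4a1-high library lay above every Slc4a1-low one and that the mean log2 CPM differed by at least 1. In the other direction, 877 genes (6.29%) were lower by the same rule. Each count of higher or lower genes in a list below is to be read against these shares. The median size of the difference was 2.36 on the log2 scale among the higher genes and 1.604 among the lower ones. Differences above 5 were found for 183 of the higher genes and for 0 of the lower ones. The median over all 13949 genes was -0.01. The number of lower genes moved with single libraries, to 1641 when control replicate 1 was left out and to 1526 when mito-supplemented replicate 1 was. Genes named below that are neither among the 4 most abundant of their list nor among those with the widest gaps were mostly chosen after their values were seen.

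By the way they were chosen, the higher genes held more of the RNA in the Slc4a1-high libraries. Outside the ribosomal RNA genes they held 37.1 ± 6.04% of counts (SD, n = 3) in the Slc4a1-high libraries and 12.3 ± 1.21% (n = 5) in the Slc4a1-low ones. The Slc4a1-high libraries resembled each other across genes. Across the 13949 genes, which are not independent replicates, the correlation of log2 CPM was 0.884 to 0.920 for the 3 pairs of Slc4a1-high libraries. It was 0.608 to 0.768 for the 15 pairs of 1 high and 1 low library, and 0.614 to 0.920 for the 10 pairs of low libraries. Without the blood cell, cell cycle and histone lists, 13705 genes gave nearly the same values, 0.882 to 0.918 and 0.619 to 0.788 for the first 2 kinds of pair. As most genes remained, these values could change little. Whether the likeness rests on blood or division genes was not tested.

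**Figure D1:**
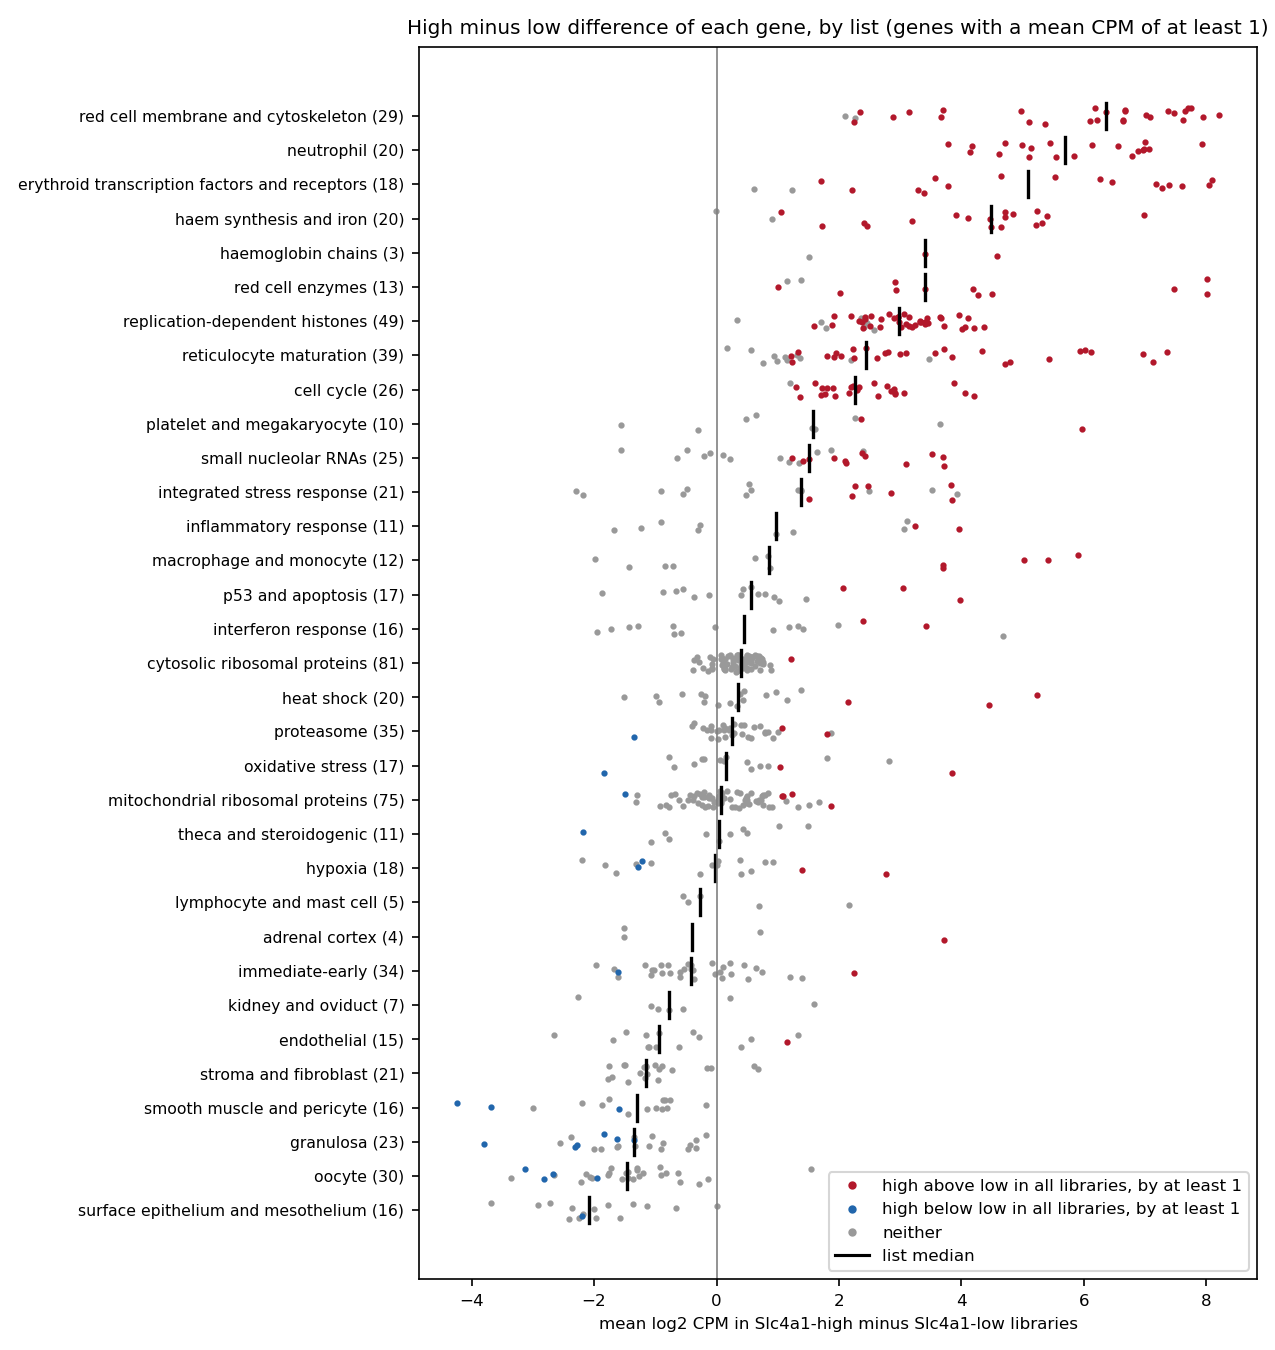
Difference of mean log2 CPM between Slc4a1-high and Slc4a1-low libraries for each gene (points) of each list with at least 3 genes measured, with the list median as a black bar and the number of genes in brackets. Red and blue points are genes counted as higher or lower. Red cell and neutrophil lists lie far to the right, while the oocyte, granulosa, stroma and surface epithelium lists have medians below 0.

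Genes of the red cell were widely displaced. Of 122 genes on 6 red cell lists that passed the level filter, 102 were higher and 0 lower, with a median difference of 3.88. All 129 listed genes, Slc4a1 left out, held 4.66 ± 0.756% of counts outside ribosomal RNA in the Slc4a1-high libraries (SD, n = 3) and 0.552 ± 0.0314% in the Slc4a1-low ones (n = 5). The lowest of the high libraries, control replicate 3, was at 4.03% (95% Wilson interval 4.02 to 4.05). The highest of the low ones, mito-supplemented replicate 4, was at 0.597% (0.591 to 0.602). These intervals cover counting error only. In bulk samples, fewer cells of a type and less RNA per cell cannot be told apart.

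The membrane and its skeleton led. Of 29 such genes 27 were higher, with a median difference of 6.35. Ank1, the ankyrin that ties the skeleton to the membrane, was at 1935, 1331 and 1335 CPM in the Slc4a1-high libraries and at 15.5, 20.8, 16.6, 6.62 and 4.71 CPM in the Slc4a1-low ones. The sets did not overlap for Ank1, and its high mean was 119.5 times its low mean. Slc14a1, the urea transporter that carries the Kidd antigen, was at 248, 223 and 169 against 0.430, 0.577, 1.11, 0.700 and 0.352 CPM, the widest gap of any gene measured. Rhag, an ammonia channel of the Rh complex, was at 225, 165 and 227 against 0.391, 1.15, 1.601, 0.653 and 0.774 CPM. Kel, a surface endopeptidase of red cells, was at 697, 401 and 427 against 0.704, 3.66, 4.39, 1.17 and 1.69 CPM. For all 3 genes the 5 low libraries stayed under 5 CPM. Epb41 (listed as Epb4.1), a protein of the membrane skeleton, differed less, at 918, 508 and 1824 against 132, 155, 97.8, 72.2 and 97.3 CPM. Slc2a4 and Tspan8 were the 2 membrane genes whose sets overlapped. The summed level of the list, Slc4a1 left out, was 12393 ± 2517 CPM over the high libraries (SD, n = 3) and 374 ± 83.5 over the low ones (n = 5).

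Haem synthesis and iron supply followed. Of 20 genes 18 were higher, with a median difference of 4.47, and the summed level was 6093 ± 950.3 CPM (SD, n = 3) against 527 ± 54.0 (n = 5). Slc25a37, the mitoferrin that brings iron into mitochondria, was the most abundant, at 1424, 1113 and 1904 against 16.7, 43.9, 54.0, 41.5 and 48.9 CPM. Tfrc, the transferrin receptor, was at 1340.3, 942 and 993 against 25.9, 42.1, 47.5, 45.6 and 62.7 CPM. Alas2, the erythroid enzyme of the first step of haem synthesis, was at 487, 217 and 692 against 7.62, 15.4, 14.8, 8.63 and 6.19 CPM. All 3 sets were apart, with Tfrc showing the least spread among the high libraries. Fech, which puts iron into the porphyrin ring, was at 596, 470.3 and 655 against 21.4, 16.5, 36.5, 32.6 and 24.8 CPM. Fth1, the ferritin heavy chain made in most cells, was at 533, 537 and 560.4 against 112, 227, 138, 189 and 177 CPM, a difference of 1.73 on the log2 scale. The ferritin light chain Ftl1 and C330007P06Rik were the 2 genes of the list that were neither higher nor lower.

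Regulators of the lineage showed the same separation. Of 18 transcription factors and receptors 16 were higher, with a median difference of 5.09 and a summed level of 3664 ± 624 CPM (SD, n = 3) against 330.3 ± 57.2 (n = 5). Hemgn, a nuclear protein of blood precursors, was at 1436, 1063 and 942 against 1.68, 5.39, 14.1, 2.85 and 3.23 CPM. Tal1 was at 146, 107 and 149.6 against 0.430, 0.962, 0.627, 1.12 and 0.703 CPM. Klf1 was at 158, 128 and 126 against 0.117, 0.385, 3.20, 0.560 and 0.492 CPM. No low library passed 4 CPM for Tal1 or Klf1. Gata1 was at 35.9, 42.8 and 35.0 against 0.586, 0.385, 4.66, 1.63 and 2.46 CPM, and the erythropoietin receptor Epor at 101, 70.4 and 47.4 against 0.586, 0, 0.696, 0.560 and 0.422 CPM. Foxo3 and Cbfa2t3 overlapped between the sets, with Foxo3 at 348, 210.0 and 387 against 236, 109, 86.7, 105 and 158 CPM.

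Red cell enzymes came to 11 higher of 13, with a median difference of 3.40 and a summed level of 3159 ± 547 CPM (SD, n = 3) against 322 ± 71.5 (n = 5). Car2, a carbonic anhydrase, was at 1018, 884 and 893 against 1.17, 2.69, 10.2, 4.99 and 3.02 CPM. Pklr, the pyruvate kinase of liver and red cells, was at 55.5, 58.2 and 33.6 against 0.117, 0.192, 0.209, 0.0933 and 0.141 CPM. Both were among the 15 higher genes with the widest gaps. Bpgm, which makes the phosphate that loosens oxygen from haemoglobin, was not, since it stood at 289 CPM in mito-supplemented replicate 1 and at 51.1 and 35.9 in the other high libraries, against 74.9, 63.1, 15.7, 27.8 and 14.0 in the low ones. Only mito-supplemented replicate 1 lay above the low libraries for Bpgm.

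Haemoglobin chains other than Hbb-b1 gave few counts, and near-identical gene copies make the counts of all the chains uncertain. Of 10 chains searched, 3 passed the level filter, Beta-s and Hba-a2 among them only through Slc4a1-high libraries. No count or median is therefore read from this list. Hbb-b1 was at 287, 90.8 and 346 against 9.97, 9.04, 6.68, 8.77 and 8.72 CPM, a mean of 241 ± 134 (SD, n = 3) against 8.64 ± 1.20 (n = 5). The beta chain listed as Beta-s was at 1.11, 2.34 and 4.71 against 0, 0, 0.139, 0.187 and 0.422 CPM. Hba-a2 was at 8.39 CPM in control replicate 2 and under 0.3 in every other library. The embryonic chains Hbb-bh1, Hbb-bh2 and Hba-x had 0 counts in all 8 libraries, and Hbb-y was at 0.396 CPM in control replicate 2 and 0 elsewhere.

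Genes of reticulocyte maturation, when organelles are cleared, were higher for 28 of 39, with a median difference of 2.44 and a summed level of 6109 ± 2231 CPM (SD, n = 3) against 1237 ± 157 (n = 5). Trak2, a mitochondrial transport adaptor, was at 749, 494 and 711 against 29.9, 43.9, 49.8, 50.5 and 52.5 CPM. Isg20, an exonuclease, was at 235, 186 and 447 against 3.99, 3.85, 5.08, 3.73 and 5.06 CPM. The low libraries lay close together for both genes. Wdr26, a subunit of a ubiquitin ligase used in many cells, was the most abundant, at 576, 467 and 809 against 178, 134, 170.1, 150.1 and 167 CPM. Bnip3l, a receptor for mitochondrial removal, overlapped between the sets at 217, 179 and 453 against 265, 103, 87.1, 123 and 135 CPM.

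Because the red cell genes moved together, the promoters of the 15 higher genes with the widest gaps were searched for motifs of erythroid factors. The RefSeq promoter table (GRCm38.p6) held an entry for 9 of the 15, too few for a share to be read. AGATAA, the motif of GATA factors, was found on either strand at 4 of them, Pklr, Kel, Tal1 and Hemgn, which are shown for that reason. In the 11 promoters of the 9 genes, CAGNTG was found in 3 and CCACACCC in 0. S100a9, the most abundant gene of the neutrophil list described below, is shown beside them and also holds AGATAA. Of all 32851 promoters of the table, 11.2% hold AGATAA, 51.4% hold the E-box CAGNTG and 3.56% hold CCACACCC, the motif of Klf factors, each searched on both strands. Each window is 300 bases long and reads 5′ to 3′ on the gene's strand, and capitals mark AGATAA (or TTATCT, its reverse) and CAGNTG. A match is a description of the letters, not a site or a cause. The windows lie on chr3:89135892-89136191 (+, Pklr), chr6:41704276-41704575 (−, Kel), chr4:115056176-115056475 (+, Tal1), chr4:46404134-46404433 (−, Hemgn) and chr3:90695672-90695971 (−, S100a9). The table lists 2 promoters each for Pklr and Tal1, of which 1 is shown.
Pklr: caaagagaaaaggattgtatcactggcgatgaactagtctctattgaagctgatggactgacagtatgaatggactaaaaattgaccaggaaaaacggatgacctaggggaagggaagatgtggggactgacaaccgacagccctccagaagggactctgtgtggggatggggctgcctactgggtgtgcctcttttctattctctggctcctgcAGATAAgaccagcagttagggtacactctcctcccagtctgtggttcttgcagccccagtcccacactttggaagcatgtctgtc
Kel: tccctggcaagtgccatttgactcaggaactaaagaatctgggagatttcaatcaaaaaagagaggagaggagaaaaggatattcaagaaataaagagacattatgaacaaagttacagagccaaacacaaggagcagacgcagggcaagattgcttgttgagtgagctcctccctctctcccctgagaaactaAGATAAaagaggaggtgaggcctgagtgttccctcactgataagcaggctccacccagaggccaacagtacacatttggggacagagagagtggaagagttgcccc
Tal1: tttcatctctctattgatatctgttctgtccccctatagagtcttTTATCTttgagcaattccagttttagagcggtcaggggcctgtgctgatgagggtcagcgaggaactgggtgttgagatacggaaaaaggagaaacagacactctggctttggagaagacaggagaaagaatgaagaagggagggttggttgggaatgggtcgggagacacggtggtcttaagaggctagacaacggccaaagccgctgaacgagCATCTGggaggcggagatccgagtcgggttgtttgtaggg
Hemgn: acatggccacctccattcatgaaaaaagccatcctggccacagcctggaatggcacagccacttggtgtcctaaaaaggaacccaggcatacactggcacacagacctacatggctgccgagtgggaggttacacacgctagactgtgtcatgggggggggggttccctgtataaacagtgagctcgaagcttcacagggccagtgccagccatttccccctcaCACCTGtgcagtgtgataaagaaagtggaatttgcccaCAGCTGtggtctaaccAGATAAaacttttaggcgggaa
S100a9: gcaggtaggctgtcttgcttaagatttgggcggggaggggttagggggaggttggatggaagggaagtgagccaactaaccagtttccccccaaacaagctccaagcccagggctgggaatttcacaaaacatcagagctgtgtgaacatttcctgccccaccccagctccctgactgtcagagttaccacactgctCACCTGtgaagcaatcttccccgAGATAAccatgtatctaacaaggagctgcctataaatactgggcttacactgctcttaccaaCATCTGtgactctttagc

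Red cells were not the only blood cells on the axis. All 20 neutrophil genes were higher, with a median difference of 5.69. Members such as Ctsg passed the level filter only through the Slc4a1-high libraries, so this count and median follow in part from the filter. Their summed level was 903, 826 and 3705 CPM in the Slc4a1-high libraries and 11.5, 10.8, 26.2, 5.04 and 7.67 CPM in the Slc4a1-low ones. As a share of counts outside ribosomal RNA, mito-supplemented replicate 1 reached 0.479% (95% Wilson interval 0.475 to 0.482), and the highest low library, mito-supplemented replicate 2, reached 0.00516% (0.00467 to 0.00571). S100a9, a calcium-binding protein that fills neutrophil cytoplasm, was the most abundant at 202, 231 and 780.0 against 2.46, 2.89, 8.15, 0.886 and 1.76 CPM. Ngp, a protein of secondary granules, was at 102, 87.1 and 849 against 0.430, 1.92, 3.76, 0.886 and 1.41 CPM. Mpo, the myeloperoxidase of primary granules, was at 266, 149 and 243 against 0.352, 0.770, 2.16, 0.466 and 0.774 CPM. The sets were apart for each of these genes, and mito-supplemented replicate 1 stood above the other high libraries for S100a9 and Ngp but not for Mpo. Ctsg, a protease of early granulocytes, had 0 counts in all 5 low libraries and was at 4.04, 3.37 and 4.86 CPM in the high ones. No neutrophil gene was at 0 throughout. The part of these genes in the other differences was not tested.

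Other blood lineages followed less fully. Of 12 macrophage and monocyte genes 5 were higher (Lyz2, Ptprc, Cd14, Tyrobp and Ccr2), with a median difference of 0.86. That median was 0.52 when control replicate 4 was left out and 1.96 with control libraries only. The summed level of the list was 223, 176 and 868 against 54.8, 76.6, 88.8, 141 and 79.5 CPM. Lyz2, the lysozyme of macrophages and granulocytes, was the most abundant at 102, 74.0 and 645 against 2.19, 18.3, 2.297, 4.34 and 2.04 CPM. Other genes of the list overlapped or had no counts. Csf1r, the receptor for macrophage colony-stimulating factor, was at 1.82, 4.28 and 10.7 against 2.11, 0.962, 6.06, 4.71 and 1.34 CPM, Mrc1 was at 4.43, 0.971 and 1.72 against 2.502, 9.81, 5.57, 18.4 and 14.4 CPM, and C1qb and Spic had 0 counts in every library. Of 10 platelet and megakaryocyte genes 2 were higher (Gp9 and Vwf), with a median difference of 1.58. Gp9 passed the level filter only through the Slc4a1-high libraries, so this count follows in part from the filter. Gp9, a subunit of the von Willebrand factor receptor, was at 21.9, 9.37 and 18.7 against 0, 0.192, 0.348, 0.0466 and 0.211 CPM, while the platelet chemokine gene Ppbp and Treml1 had 0 counts throughout. Among 5 lymphocyte and mast cell genes 0 were higher or lower, and the median was -0.27, which ran from -1.05 to 1.20 with 1 library left out. Cpa3, the mast cell protease and the most abundant of them, ranged from 0.487 to 72.7 CPM over the low libraries alone.

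Lists of blood precursors and of neighbouring tissues, added after the data were seen, gave the following. Of 7 stem and progenitor genes 4 were higher (Ikzf1, Spi1, listed as Sfpi1, Spn and Vav1), with a median difference of 4.33. Ikzf1, a transcription factor of many blood lineages, was at 243, 259.5 and 204 against 0.352, 4.62, 2.78, 1.31 and 1.55 CPM. Of 10 eosinophil and basophil genes 3 passed the level filter. Prg2 passed it only through the Slc4a1-high libraries, at 34.8, 3.48 and 2.45 against 0, 0.192, 0, 0 and 0 CPM, so no count is read from that list. Of 3 B cell progenitor genes 1 was higher (Rag1), of 5 bone and cartilage genes 1 (Acp5, the acid phosphatase of osteoclasts, at 107, 71.0 and 26.8 against 0.743, 2.31, 2.02, 0.746 and 0.141 CPM), and of 2 spleen stroma genes 0. Among these bone, cartilage and spleen genes, Acp5 was the only one that followed the axis.

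**Figure D2:**
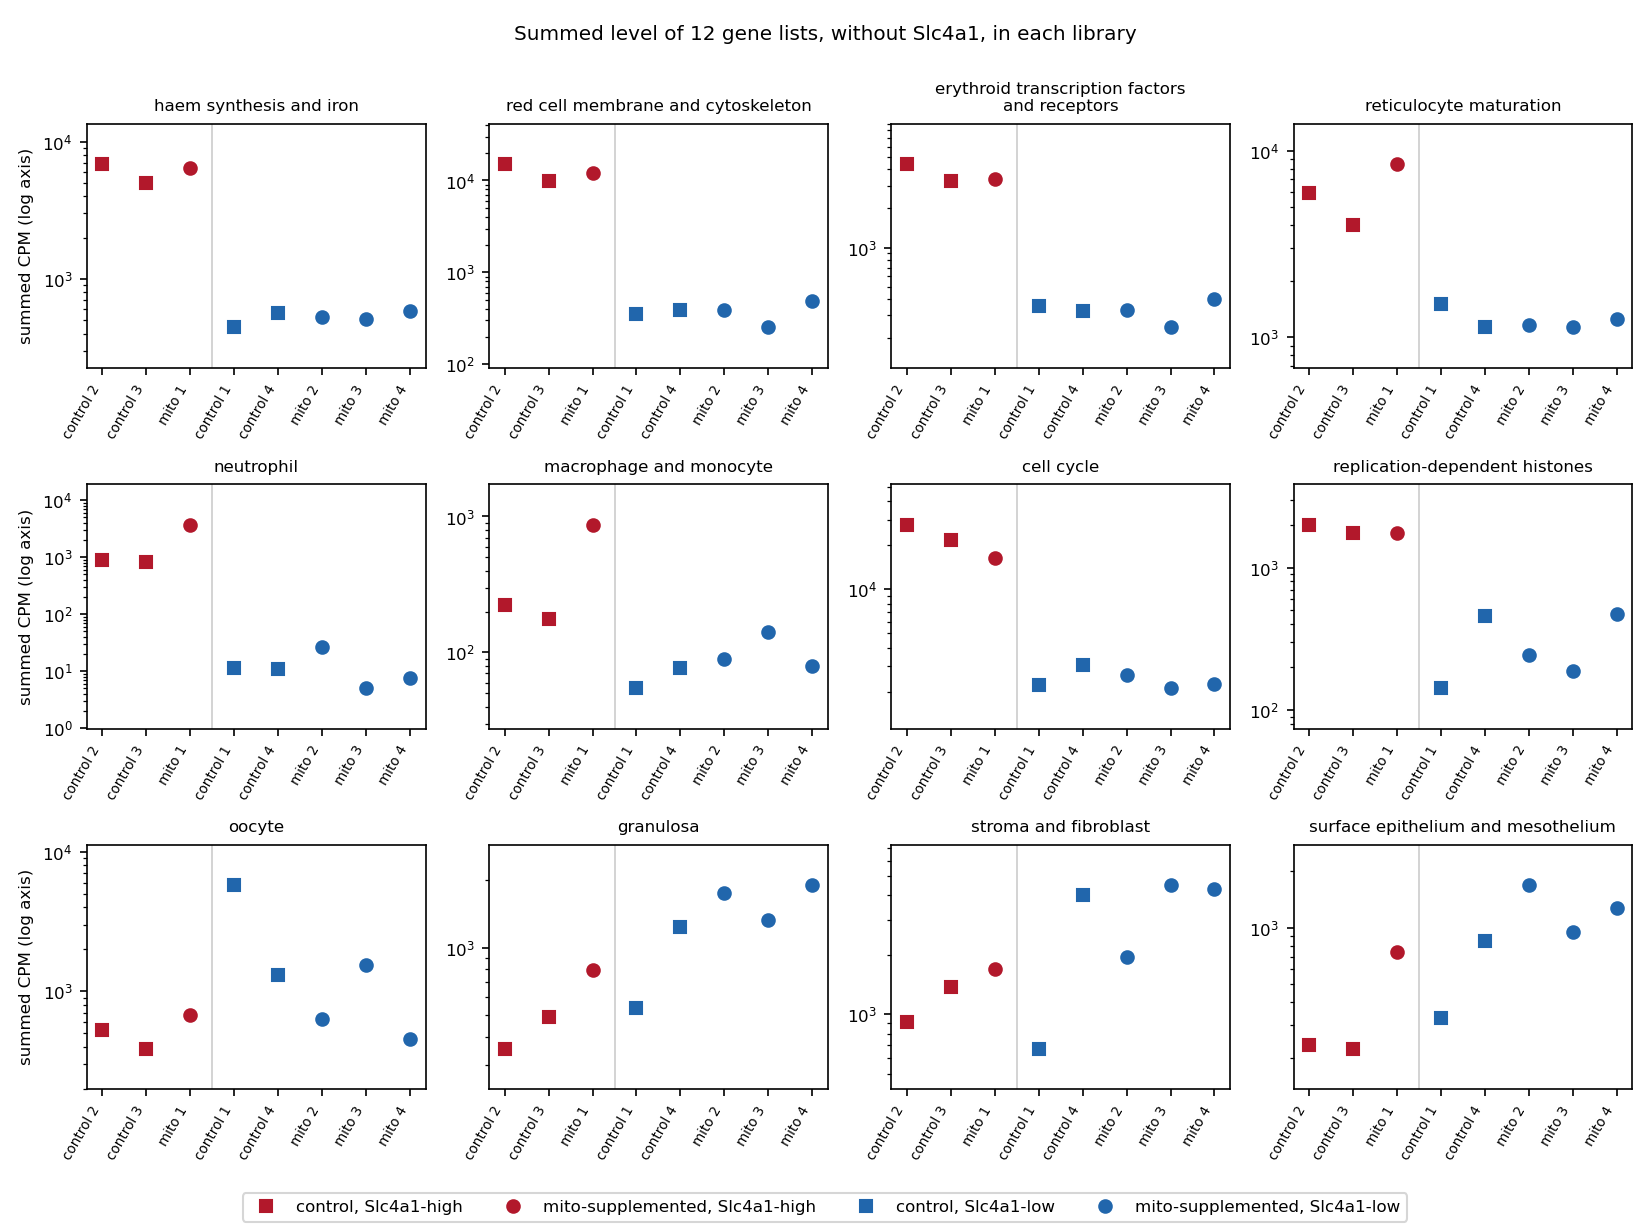
Summed CPM of 12 gene lists, without Slc4a1, in each library, on log axes, with Slc4a1-high libraries in red at the left and Slc4a1-low libraries in blue. Squares are control and circles mito-supplemented libraries. Red cell, neutrophil, cell cycle and histone lists are apart between the sets, and the oocyte list is highest in control replicate 1, at 5728.

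Division genes also separated the libraries. Of 26 cell cycle genes 25 were higher, Bub1 being the exception, with a median difference of 2.26. Their summed level was 27631, 21917 and 16457 CPM in the Slc4a1-high libraries and 2232, 3057, 2581, 2120.3 and 2263 CPM in the Slc4a1-low ones. Mki67, the nuclear protein of dividing cells, was at 17999.9, 13691 and 10181 against 466, 1066, 1119, 727 and 891 CPM, the most abundant of the list. Top2a, which untangles replicated DNA, was at 2388, 2063 and 1535 against 112, 355, 335, 300.2 and 315 CPM. Rrm2, which makes the building blocks of DNA, was at 271, 306 and 119.7 against 11.4, 7.89, 21.9, 14.7 and 22.0 CPM. All 3 were apart, and mito-supplemented replicate 1 was the lowest of the high libraries for each. The replication-dependent histones, whose near-identical copies make single genes uncertain, were higher for 42 of 49, with a median difference of 2.98 and a summed level of 1992, 1744 and 1739 against 143, 455, 242, 187 and 469 CPM. Among them Hist1h1b, a linker histone, was at 285, 262 and 301 against 9.15, 62.1, 27.1, 19.8 and 55.2 CPM.

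The level of a gene per length of its exons allows genes to be set side by side. In the Slc4a1-high libraries the mean level per kilobase was 1387 CPM for Mki67, 543 for Ctse, 493 for Slc4a1 and 385 for Car2. In the Slc4a1-low libraries it was 84.9 for Mki67, 2.60 for Ctse, 3.81 for Slc4a1 and 1.83 for Car2. Mki67 was the highest of these genes in both sets.

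Small nucleolar RNAs were higher for 12 of 25, with a median difference of 1.52, and their counts are uncertain where they lie inside host gene exons. Scarna9 was the most abundant at 79.1, 71.1 and 60.8 against 23.3, 11.9, 30.6, 13.2 and 18.8 CPM. Ribosome and proteasome genes had small median differences. Among 81 cytosolic ribosomal proteins 1 was higher (Rplp0) and the median was 0.39. Of the 81, 71 were above 0 inside the control group and 66 inside the mito-supplemented group. Among 75 mitochondrial ribosomal proteins 4 were higher and 1 was lower, with a median of 0.07 that turned to -0.01 when libraries were scaled by their totals only. That median ran from 0.02 to 0.24 with 1 library left out. Among 35 proteasome genes 2 were higher (Psmd14 and Psmf1) and 1 lower (Psme2), with a median of 0.25. Their summed level was nonetheless apart between the sets, at 1927, 1883 and 2062 against 1707, 1539, 1194, 1492 and 1433 CPM.

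Oocyte and granulosa genes had medians on the other side of the axis, but with overlapping sets. Of 30 oocyte genes 4 were lower and 0 higher, with a median difference of -1.46. Their summed level was 526, 389 and 671 CPM in the Slc4a1-high libraries and 5728, 1316, 630.0, 1555 and 454 CPM in the Slc4a1-low ones. Zp2, a protein of the zona pellucida, was at 17.0, 7.20 and 16.8 against 356, 105, 25.1, 157 and 25.1 CPM. Ooep, of the maternal complex beneath the oocyte membrane, was at 2.85, 12.8 and 14.52 against 276, 41.0, 21.9, 86.1 and 30.6 CPM. Pou5f1 and Jag1 were the other lower genes. Nlrp5, also of the maternal complex and the most abundant of the list, overlapped at 41.5, 71.6 and 69.6 against 1327, 201, 52.8, 252 and 18.6 CPM. Control replicate 1 held the highest value of Zp2, Ooep and Nlrp5, and without it the list median was -0.85. The oocyte difference was seen inside the control group, with a median of -3.23, and not among the mito-supplemented libraries, with a median of 0.04. Whether treatment changes it was not tested.

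Granulosa cell genes were lower for 6 of 23 (Foxl2, Fst, Wnt4, Esr2, Foxo1 and Hey2), with a median difference of -1.35 that was nearly the same inside the control (-1.14) and the mito-supplemented group (-1.14). Their summed level was 355, 491 and 792 against 539, 1237, 1759.9, 1334 and 1893 CPM. Hey2, a target of Notch signalling, was at 0, 0.914 and 1.03 against 9.30, 3.08, 4.87, 14.3 and 9.42 CPM. Esr2, the oestrogen receptor beta of granulosa cells, was at 4.196, 12.3 and 4.66 against 28.0, 50.4, 16.2, 49.7 and 27.4 CPM. Wt1, the most abundant of the list, overlapped at 69.0, 70.5 and 146 against 71.3, 325, 464, 232 and 594 CPM. Control replicate 1 lay near the high libraries for Wt1, unlike the other low libraries.

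The remaining tissue lists had the following counts, where 12.6% of all genes were higher and 6.29% lower. Surface epithelium and mesothelium had 1 of 16 lower (Bnc1), with a median of -2.09, the lowest of any list. Its summed level was 237, 225 and 741 against 329.7, 844, 1682, 948 and 1273 CPM, so that mito-supplemented replicate 1 lay among the low libraries. Aldh1a1, a retinal dehydrogenase and the most abundant of it, overlapped at 152, 164 and 314 against 142, 357, 519, 426 and 272 CPM. Smooth muscle and pericytes had 3 of 16 lower (Cnn1, Actg2 and Cspg4), with a median of -1.30. Stroma had 0 of 21 in either direction and a median of -1.15, with Col3a1 at 133, 186 and 347 against 82.8, 550.0, 421, 739 and 679 CPM. The sign of the stroma median depended on the libraries compared. It was -0.54 inside the control group and 0.42 inside label code 280, where 17 of 21 genes were above 0. Endothelium had 1 of 15 higher (Erg) and a median of -0.94, which ran from -1.14 to -0.54 with 1 library left out and was 0.50 inside label code 280. Theca cells had 1 of 11 lower (Gli2) and a median of 0.04 that turned to -0.04 under scaling by totals and ran from -0.29 to 0.25 with 1 library left out. Of 4 adrenal cortex genes, Mrap passed the level filter only through Slc4a1-high libraries, at 4.75, 6.00 and 0.392 against 0, 0, 0.209, 0.280 and 0 CPM. No count or median is therefore read from that list. Its summed level over the whole list was 17.2, 21.4 and 16.2 against 64.3, 36.7, 24.99, 35.7 and 78.0 CPM. Among 7 kidney and oviduct genes and 1 adipocyte gene 0 differed. No hepatocyte gene passed the level filter. The most abundant of those, Apoa1, reached 4.62 CPM in mito-supplemented replicate 3, and Ttr, Fga and Cyp2e1 had 0 counts in all libraries.

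The stress genes fell into groups that did not move alike. Heat shock genes were higher for 3 of 20 (Hspa1a, Hspa1b and Dnajb1), with a list median of 0.36, where 12.6% of all genes were higher. The median was 0.09 when control replicate 2 was left out and 0.54 when mito-supplemented replicate 1 was. Hspa1a, the inducible chaperone, was at 328, 94.4 and 25.1 against 0.156, 1.73, 6.54, 12.1 and 1.97 CPM. Its near-identical neighbour Hspa1b, whose reads may be shared with it, was at 326, 125 and 17.6 against 0.938, 1.73, 6.20, 10.96 and 8.37 CPM. Dnajb1, a co-chaperone, was at 219, 105 and 61.5 against 11.2, 13.5, 51.7, 31.4 and 41.7 CPM. For all 3 genes control replicate 2 was the highest library and mito-supplemented replicate 1 the lowest of the Slc4a1-high ones. The constitutive chaperone Hsp90ab1 overlapped, at 2284, 1720.0 and 1811 against 1977, 2656, 2485, 1990.0 and 2458 CPM. Hsph1 was at 752 CPM in control replicate 2 and between 55.1 and 180.0 in the other 7 libraries.

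Genes of the integrated stress response were higher for 7 of 21 and lower for 0, with a median of 1.38 and a summed level of 1049 ± 389 CPM (SD, n = 3) against 384 ± 72.9 (n = 5). Eif2ak1, the haem-regulated kinase that slows translation in red cell precursors, was at 295, 192 and 399.6 against 57.3, 31.4, 45.4, 33.8 and 33.2 CPM. Ppp1r15a, which reverses that block, was at 164, 80.6 and 226 against 16.7, 32.1, 28.4, 22.6 and 33.3 CPM. Ddit3, a factor induced late in the response, was at 46.2, 19.995 and 29.9 against 2.19, 5.77, 13.6, 7.88 and 6.82 CPM. The sets were apart for all 3. Asns, Shmt2, Mthfd2 and Atf4 were the other higher genes, Asns being at 121, 73.5 and 80.9 against 2.07, 2.501, 11.2, 19.9 and 7.38 CPM.

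Immediate-early genes followed another order. Of 34 genes 1 was higher (Ier5) and 1 lower (Gadd45b), where 12.6% of all genes were higher and 6.29% lower. Their median was -0.41 and ran from -0.76 to -0.05 with 1 library left out. Egr1, a zinc finger factor induced within minutes of stimulation, was at 55.5, 141 and 208 in the Slc4a1-high libraries and at 119.7, 114, 477, 774 and 1161 in the Slc4a1-low ones. Fos was at 11.3, 43.3 and 64.2 against 9.77, 13.1, 129.8, 219 and 296 CPM. Fosb was at 5.46, 10.1 and 20.9 against 6.29, 20.4, 53.5, 68.3 and 255 CPM. For these genes the low libraries divided by treatment, with the 3 mito-supplemented ones above both control ones and mito-supplemented replicate 1 in between or close to the controls. Atf3, which belongs to the integrated stress list, did the same at 7.28, 13.5 and 45.6 against 1.21, 2.69, 134, 71.0 and 195 CPM. The list median was 0.86 inside the control group and -0.75 among the mito-supplemented libraries, so its sign depends on the group.

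**Figure D3:**
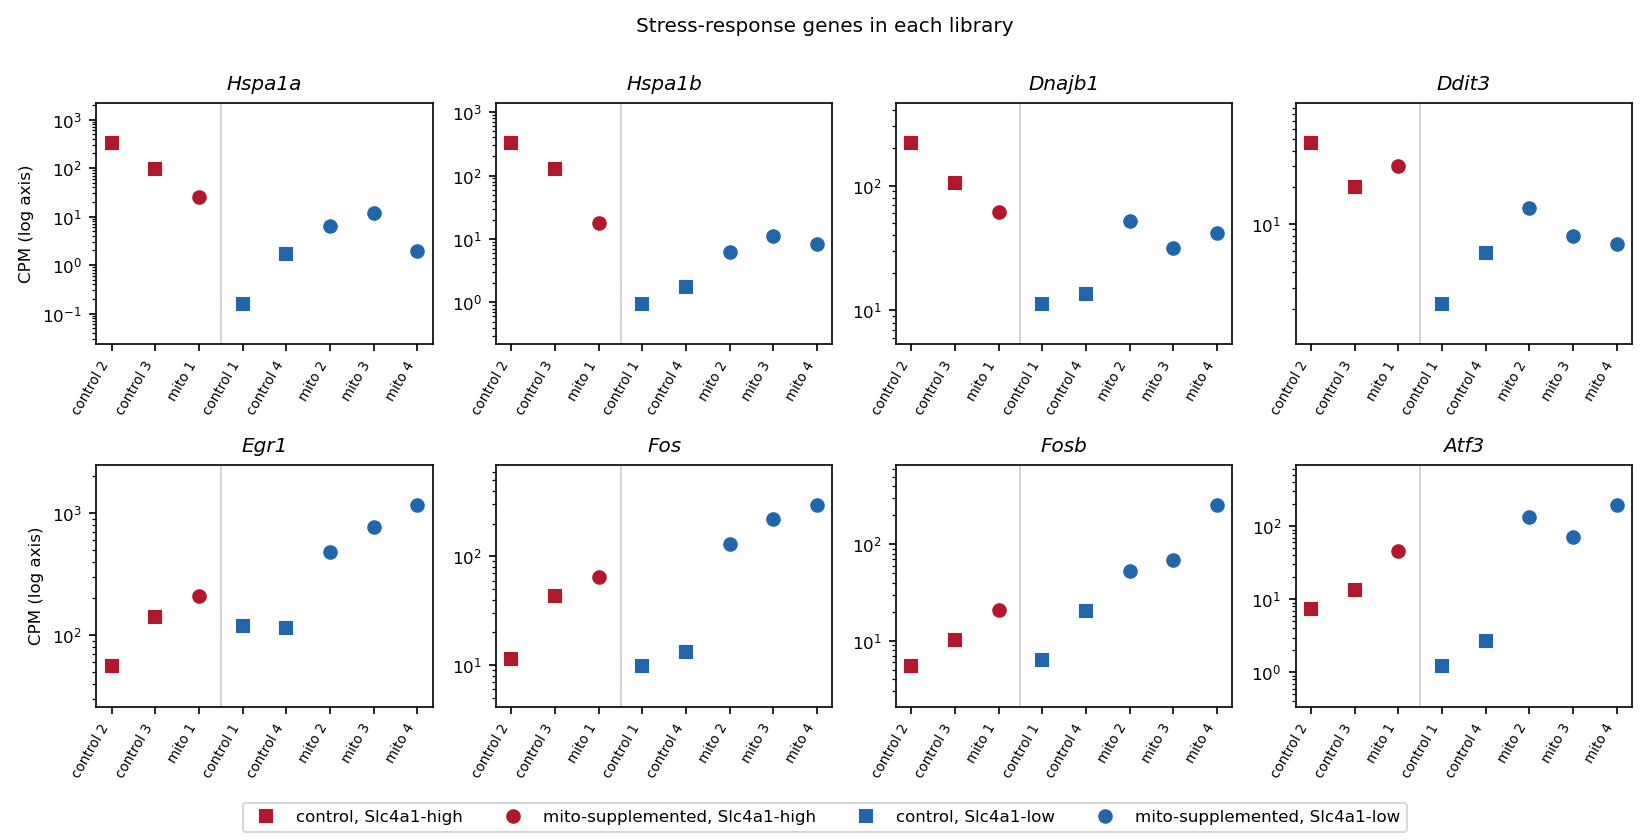
CPM of 8 stress-response genes in each library, on log axes, with Slc4a1-high libraries in red and Slc4a1-low libraries in blue, control as squares and mito-supplemented as circles. Hspa1a, Hspa1b, Dnajb1 and Ddit3 (top) are apart between the sets, while Egr1, Fos, Fosb and Atf3 (bottom) are highest in the 3 Slc4a1-low mito-supplemented libraries.

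The other stress lists are set beside shares of 12.6% higher and 6.29% lower over all genes. Of 18 hypoxia genes 2 were higher (Slc2a3 and Ero1l) and 2 lower (Egln1 and P4ha2), with a median of -0.03 that ran from -0.42 to 0.17 with 1 library left out. Of 17 oxidative stress genes 2 were higher (Gclc and Gpx4) and 1 lower (Gsta4), with a median of 0.16, which was 0.44 when control replicate 3 was left out. Gclc, which limits glutathione synthesis, was at 247, 190.0 and 109 against 17.7, 20.4, 7.66, 16.1 and 5.20 CPM. Of 17 p53 and apoptosis genes 3 were higher (Bbc3, Pmaip1 and Apaf1), with a median of 0.56, which was 0.34 when mito-supplemented replicate 4 was left out and 0.00 with control libraries only. Of 11 inflammatory genes 2 were higher (Tnfaip3 and Ccl3), with a median of 0.96 that was 0.04 when mito-supplemented replicate 1 was left out. Of 16 interferon genes 2 were higher (Irf7 and Usp18), with a median of 0.45. The sign of the interferon median depended on single libraries, as it was -0.26 when control replicate 2 was left out and -0.46 when mito-supplemented replicate 1 was. Rsad2, an antiviral enzyme, was at 87.7, 8.91 and 316 against 0.313, 11.2, 5.50, 4.29 and 0.633 CPM, overlapping through control replicate 3.

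The genes with the widest gaps included some that no list held. Ctse, an aspartic protease found in red cell precursors and stomach, was at 1846, 1639 and 1682 against 3.67, 6.54, 16.4, 4.85 and 9.78 CPM. The long non-coding RNA gene 9430076G02Rik was at 92.2, 103 and 55.3 against 0.156, 0.385, 0.139, 0.0466 and 0.0703 CPM. Clec12a, an inhibitory receptor of myeloid cells, was at 13.8, 12.7 and 15.7 against 0.0391, 0, 0, 0.0466 and 0.0703 CPM. The 3 high libraries stood close together for Ctse and Clec12a. Slc30a10, a manganese exporter, was at 193, 225 and 108 against 0.782, 1.35, 1.11, 0.840 and 1.05 CPM, and Tnfrsf14, a receptor of the tumour necrosis factor family, at 103, 68.7 and 39.4 against 0, 0.385, 0.418, 0.187 and 0.0703 CPM. The other 10 of the 15 were on the red cell lists (Slc14a1, Pklr, Car1, Rhag, Kel, Tal1, Car2, Gfi1b, Lmo2 and Hemgn).

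On the lower side the gaps were narrower. Fa2h, a fatty acid hydroxylase, was at 0, 0.114 and 0.196 against 1.41, 5.58, 1.53, 1.91 and 3.52 CPM. Myzap was at 2.22, 0.457 and 0.785 against 10.1, 11.5, 22.3, 9.93 and 22.2 CPM. Arap2, which regulates small GTPases, was the evenest, at 19.9, 21.5 and 22.4 against 75.1, 69.1, 67.3, 70.4 and 67.8 CPM. Prkaa2, the catalytic alpha subunit of the energy-sensing kinase AMPK, was at 2.22, 5.26 and 4.41 against 38.7, 15.8, 24.5, 18.2 and 39.3 CPM. The high libraries were below the low ones for each, as they were for Fetub, Pcp4, Cnn1, Fggy, Gm13125, Nkd2, Il17re, Myo5c, Zscan18 and Asic2 (listed as Accn1).

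**Figure D4:**
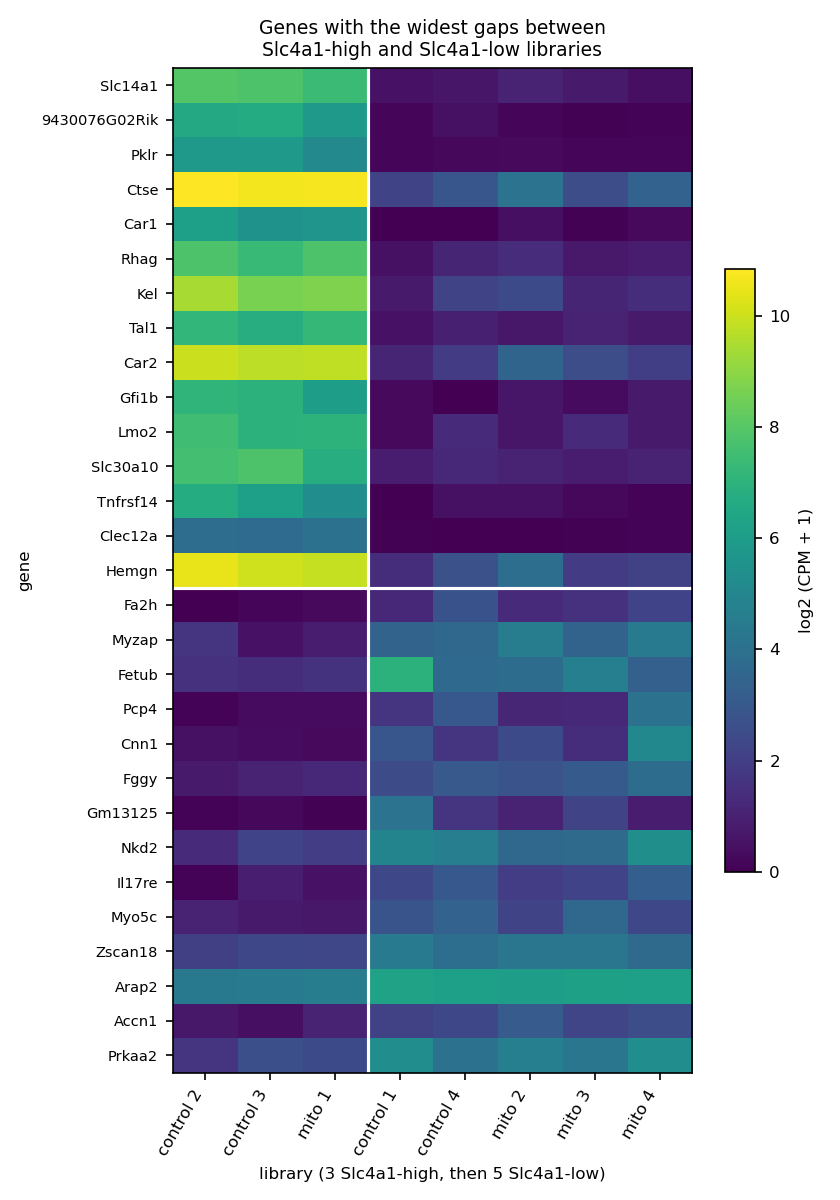
Log2 (CPM + 1) of higher (15) and lower (14) genes with the widest gaps between the nearest libraries of the sets, by library. Above the horizontal line the 3 Slc4a1-high libraries are bright and the 5 Slc4a1-low libraries dark, and below it the reverse holds at lower levels.

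Xist, the RNA that coats the inactive X chromosome, was at 5119.5, 3611 and 2604 against 336, 867, 2415, 1835 and 1750.1 CPM. The sets were apart by a gap of 0.11 on the log2 scale, and control replicates 1 and 4 were far below the other low libraries. Measures of the libraries themselves overlapped between the sets. The genes listed as Rnr1 and Rnr2 held 37.8%, 36.6% and 14.9% of counts in the Slc4a1-high libraries and 19.4%, 74.0%, 44.3%, 34.8% and 42.2% in the Slc4a1-low ones. Genes with at least 1 count numbered 16988, 17554 and 16961 against 16302, 14299, 17355, 18317 and 14806. The part of these measures in the differences was not tested.

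The 3 Slc4a1-high libraries were not copies of each other. Mito-supplemented replicate 1 stood above both high controls for 17 of 20 neutrophil genes, with a median difference of 2.52 from their mean, where the median over all 13949 genes was 0.03. Over all genes, 5347 (38.3%) were above both high controls and 5014 below both. Retnlg, a resistin-like protein of mature neutrophils, was at 95.6 CPM in it and at 1.43 and 2.40 in control replicates 2 and 3. Elane, the elastase made early in granulocyte development, went the other way, at 0.441 CPM against 11.6 and 10.3. Fcnb, the other neutrophil gene below both controls, was at 4.95 CPM against 16.3 and 7.48. Reticulocyte genes were above both controls for 27 of 39, with a median of 0.64. Xpo7, a nuclear export factor of maturing red cells, was at 816 CPM in mito-supplemented replicate 1 against 192 and 89.0, and at 60.3 to 113 in the low libraries. Cell cycle genes were below both controls for 23 of 26, with a median of -0.60. The erythroid transcription factors and receptors had a median of -0.13. Surface epithelium genes were above both controls for all 16, with a median of 2.75. Control replicate 2 was above control replicate 3 for 27 of 29 membrane genes, 33 of 39 reticulocyte genes, 18 of 21 integrated stress genes and 18 of 20 heat shock genes, where it was above for 7138 of all 13949. A difference of treatment and one of single libraries cannot be told apart here, as only 1 Slc4a1-high library was mito-supplemented.

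**Figure D5:**
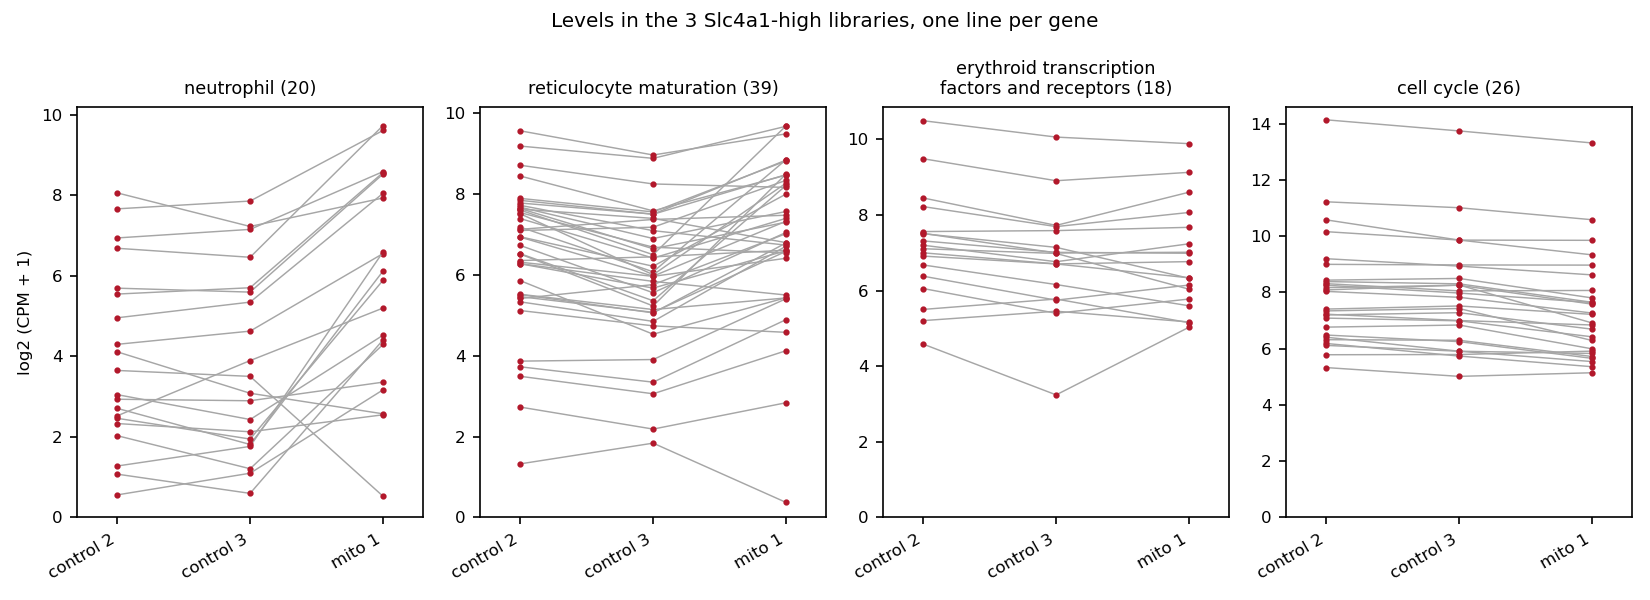
Log2 (CPM + 1) of each gene (1 line each) of 4 lists in the 3 Slc4a1-high libraries. Most neutrophil and reticulocyte genes lie higher in mito-supplemented replicate 1 than in either control, and most cell cycle genes lie lower. Of 18 erythroid transcription factors and receptors, 4 lie above both controls and 8 below both.

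The Slc4a1-low libraries held low levels of the same genes. As a percentage of the mean of the high libraries, Slc4a1 itself was at 0.161, 0.902, 1.98, 0.431 and 0.391. The 102 higher red cell genes had medians of 2.13, 3.53, 4.77, 3.93 and 5.46%, and the 20 neutrophil genes medians of 0.241, 0.526, 1.04, 0.216 and 0.354%. Mito-supplemented replicate 2 was the highest low library for Slc4a1 and for neutrophil genes, but not for the red cell genes as a whole. The 25 higher cell cycle genes had medians of 24.9, 24.8, 16.8, 17.8 and 17.3%.

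The red cell difference was as large inside each group as over all libraries. Its median was 4.16 in the control group (2 high, 2 low) and 3.89 in the mito-supplemented group (1 high, 3 low). Inside the 3 label codes that held both kinds of library it was 4.63, 3.49 and 4.12. Over the same sets the neutrophil median was 5.66 in controls and 7.64 in mito-supplemented libraries, and the cell cycle median 2.08 and 2.07. In each of them all 20 neutrophil genes were above 0, which follows in part from the level filter.

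The treatment itself was not used to choose the libraries, so it could be tested with the Slc4a1 status as a term. The genes with the lowest p were higher in the mito-supplemented libraries on both sides of the split. Gpm6a, a membrane glycoprotein of neurons and mesothelium, was at 1.84, 4.196, 1.26 and 5.77 CPM in control replicates 1 to 4 and at 39.3, 67.0, 41.9 and 126 in mito-supplemented replicates 1 to 4. Its fitted log2 fold change was 4.17 ± 0.60 (SE), with all 4 mito-supplemented libraries above all 4 controls (edgeR quasi-likelihood test, Benjamini-Hochberg adjusted p = 0.149, and 0.418 both without the status term and in the Slc4a1-low libraries alone). Gabbr1, a subunit of the GABA-B receptor, was at 9.66, 14.96, 12.7 and 14.2 against 79.2, 119, 37.1 and 89.7 CPM, again with separate groups. The remaining genes of the first 5 were 6330403A02Rik, Adamts19 and Dclk1.

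No gene passed the threshold. With the status term, edgeR's quasi-likelihood test gave 0 of 13873 genes at an adjusted p under 0.05, with 1369 at an unadjusted p under 0.05 (765 higher and 604 lower in mito-supplemented libraries). Other tools gave other counts, 103 by edgeR's likelihood ratio test and 324 by DESeq2. Without the status term the quasi-likelihood test also gave 0, with 1069 genes at an unadjusted p under 0.05. In the 5 Slc4a1-low libraries alone (3 mito-supplemented, 2 control) it gave 0 of 14568, with 1576 unadjusted. A p that misses the threshold does not show that the groups were alike. The labels call the libraries biological replicates, and these p-values measure only the spread between these samples. Label codes 280 and 301 held only control libraries, and C56 and C60 only mito-supplemented ones. A difference of treatment and one between label codes therefore cannot be told apart.

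Atf3 and the immediate-early gene Fos had the lowest p in the Slc4a1-low libraries. In the Slc4a1-low libraries the fitted log2 fold change of mito-supplemented over control was 6.13 ± 0.71 (SE) for Atf3 and 4.18 ± 0.51 for Fos, with all 3 mito-supplemented above both control libraries. Neither passed (edgeR quasi-likelihood test, adjusted p = 0.191 for both). Over all 8 libraries with the status term the values were 4.84 ± 0.93 for Atf3 (adjusted p = 0.293), 3.25 ± 0.75 for Fos, 2.60 ± 0.71 for Fosb (adjusted p = 0.373 for both) and 2.16 ± 0.48 for Egr1 (adjusted p = 0.354). All 4 mito-supplemented libraries were above the 4 controls for Egr1, Fos, Fosb and Atf3. For Hspa1b the fitted log2 fold change was 1.01 ± 1.37 with the status term and -3.42 ± 1.43 without it (adjusted p = 0.818 and 0.636), so its sign depended on the term.

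Whether the treatment difference itself differed with Slc4a1 status was fitted as an interaction, of which only fitted values are given here. Its gene counts under alternative settings are listed with the processing, and no conclusion is drawn from those counts. On the high side the interaction rests on 1 mito-supplemented library, whose spread is not measured. The difference of log2 fold changes was 4.64 for Bpgm and -6.39 for the chaperone gene Hspa1b. These genes were named because they came first in the fit, and no conclusion is drawn from them.

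Exons of other annotated genes overlap those of some genes named above, and reads of the overlapping stretch may belong to either. This makes the counts uncertain for Foxl2, Ank1, Epb4.1, Tspan8, Slc25a37, Alas2, Ftl1, Cbfa2t3, Pklr, Mpo, Csf1r, Rag1, Acp5, Top2a, Pou5f1, Fst, Foxo1, Bnc1, Col3a1, Hspa1a, Eif2ak1, Ppp1r15a, Ddit3, Shmt2, Irf7, Usp18, Slc30a10, Pcp4, Xist, Xpo7 and Dclk1. Such overlaps were present for 38.8% of the higher genes, 31.2% of the lower ones and 37.2% of the rest.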

How the data were processed

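Read counts per gene for 26586 genes in 8 libraries were used as deposited; the authors made these counts with Trim Galore 0.4.4, STAR 2.5.3a and featureCounts on GRCm38/mm10. The strand setting is not stated. A further control library that the authors left out was not analysed here. CPM used edgeR 4.0.16 TMM factors (R 4.3.3) and, on the log2 scale, a prior count of 2. Genes with a mean CPM of at least 1 were compared, without Slc4a1. A gene can pass this filter through the Slc4a1-high libraries alone, as did Beta-s, Hba-a2, Prg2, Ctsg, Mrap and Gp9 among others. Counts over such genes follow in part from the filter. Treatment was tested with edgeR quasi-likelihood fits, Benjamini-Hochberg adjusted, at 0.05, and with DESeq2 1.42.0 as an alternative. Exon lengths and overlaps came from GENCODE M21, which held 24546 of the symbols. Other scalings, filters, tests and left-out libraries were tried as alternatives.

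Genes were named by rule as the up to 4 most abundant of each list, the 15 widest gaps each way, Slc4a1, Hbb-b1, Egr1, Fos, Fosb, Atf3, Hspa1a, Hspa1b and Xist, and the 5 lowest treatment p. Members and lists were chosen with earlier results of these data known. Some genes that the rule names are not reported here.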

Additional observations from a re-analysis of the deposited data

Results flagged for a closer look

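Among the Slc4a1-low libraries, control replicate 1 lay far below the others for endothelial genes, with a log2 of the summed CPM plus 1 of 5.98 where the other 4 lay between 8.04 and 8.25. In all, 101 such checks were made, each of 1 gene, list or library measure within the Slc4a1-low set or a treatment group. Of these, 1 gave such a distant library, where chance alone would give about 5.05. The checks share libraries and are not independent.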

How the results depend on the processing

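Each gene named by the rule and counted as higher or lower kept its direction when scaled by library size or DESeq2 factors and with each library left out in turn. Among the named genes that were neither, some changed sign with a library left out or another scaling, Atf3 and Cpa3 among them. Scaling by DESeq2 factors, upper quartile or library size, other filters and another prior count left the counts of higher and lower genes within 1.5 times those reported. With control libraries only, 2872 genes were higher and 2462 lower, and the red cell median was 4.16; this compares fewer samples. Leaving out 1 library at a time gave 1708 to 2140 higher genes, 924 to 1641 lower genes and a red cell median of 3.80 to 4.08. Within label codes, an alternative chosen after seeing the data, that median was 4.63 (code 280) and 3.49 (code 301). The treatment test with the status term gave 103 genes by the likelihood ratio test, 324 by DESeq2, 1 with library size scaling and 120 with every gene that had a count. The interaction gave 42, 64 and 96 genes by the likelihood ratio test, DESeq2 and every gene with a count. The cause of these differences was not tested. Leaving out 1 library at a time, both gave 0 to 0 genes; without mito-supplemented replicate 1 the interaction could not be fitted. With a replicate block, treatment and interaction gave 0 and 0 genes. The numbers do not pair the libraries, as the correlations of same-numbered libraries were -0.24, -0.19, -0.33 and 0.22, and 1 of 4 control libraries correlated best with its own number. No block by replicate number was fitted to the high-low counts, which come from no test. No conclusion is drawn from any interaction count, as the high side holds only 1 mito-supplemented library, whose spread is not measured. In the smallest library, 3 counts stood for 0.577 CPM, so values below that level rest on few counts, among them those of Mrap and Elane in mito-supplemented replicate 1 (0.392 and 0.441 CPM), though both genes were counted as higher. Leaving Slc4a1 out of the summed levels and shares of the red cell lists was chosen after seeing the data.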
